A study of Mus musculus with 14 samples.

Results

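*Meis1*, *Meis2*, *Meis3*, *Pbx2*, *Pbx3* and *Pbx4*, 6 of the 31054 genes counted in each library, were followed by symbol through all 14 single-cell RNA-sequencing (scRNA-seq) libraries of *Atoh1*-lineage cells from the mouse hindbrain. The genes were chosen by family membership. All animals were C57BL/6J and carried a Cre knock-in at 1 *Atoh1* allele together with a Cre-dependent TdTomato reporter, so that cells that had expressed *Atoh1*, and their descendants, were red and could be sorted. Control animals (*Atoh1Cre/+; Rosa lsl-tdTomato/+*) kept 1 wild-type *Atoh1* allele, whereas *Atoh1S193A/-* animals (*Atoh1Cre/S193A; Rosa lsl-tdTomato/+*) carried the S193A hypomorphic allele in its place, so neither genotype had the 2 wild-type copies of *Atoh1*. Whole hindbrains of single embryos gave 3 control and 3 *Atoh1S193A/-* libraries at E14.5 and at E18.5 (embryonic day), with controls taken from the same litters. At postnatal day (P) 5, the dissected pontine nuclei (PN) of control pups, pooled within a library, gave 2 libraries.

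MEIS and PBX proteins are TALE homeodomain transcription factors, named for a 3-amino-acid loop extension in the homeodomain. They bind DNA together with HOX proteins and with each other: PBX proteins contact HOX proteins through a short peptide motif, and MEIS proteins bind PBX proteins and hold them in the nucleus. In the hindbrain, *Hox* genes mark position along the head-to-tail axis, and PN neurons come from the caudal rhombic lip, from rhombomeres where *Hox* genes of several paralog groups are expressed. Granule cells and the other derivatives of the rostral rhombic lip arise where *Hox* genes are largely off. The *Atoh1* lineage therefore holds *Hox*-expressing and *Hox*-free neurons side by side.

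In the GENCODE M21 annotation of GRCm38, *Meis1* (ENSMUSG00000020160) lies at chr11:18879817-19018985 on the minus strand, *Meis2* (ENSMUSG00000027210) at chr2:115863064-116065839 on the minus strand, and *Meis3* (ENSMUSG00000041420) at chr7:16175090-16186504 on the plus strand. *Pbx2* (ENSMUSG00000034673) lies at chr17:34591266-34597400 on the plus strand, *Pbx3* (ENSMUSG00000038718) at chr2:34171457-34373142 on the minus strand, and *Pbx4* (ENSMUSG00000031860) at chr8:69832491-69872292 on the plus strand. *Pbx2* shares 227 exonic bases with *Gpsm3* on the same strand, so its counts are uncertain to that extent. *Gm16140* is antisense to *Meis1* and overlaps 896 of its exonic bases. The upstream windows are shown for the 4 members that were higher in *Hox*-positive cells at an embryonic stage, from the RefSeq promoters of GRCm38.p6 (250 bases before the annotated start, of which the part outside any annotated exon is printed, 5′ to 3′ on the strand of the gene). They are *Meis1* at chr11:19018986-19019219, *Meis2* at chr2:116064722-116064801, *Meis3* at chr7:16175185-16175274 and *Pbx4* at chr8:69832374-69832490. The RefSeq starts of *Meis2* and *Meis3* lie inside the gene spans given above, so their printed stretches lie within those genes, outside the annotated exons. Capitals mark a CCAAT box or its reverse complement ATTGG.
Meis1: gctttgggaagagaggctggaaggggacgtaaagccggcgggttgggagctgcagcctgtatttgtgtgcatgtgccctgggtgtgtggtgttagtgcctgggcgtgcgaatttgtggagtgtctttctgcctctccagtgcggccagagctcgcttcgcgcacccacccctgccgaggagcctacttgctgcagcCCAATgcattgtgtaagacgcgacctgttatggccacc
Meis2: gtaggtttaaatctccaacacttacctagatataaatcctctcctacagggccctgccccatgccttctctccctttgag
Meis3: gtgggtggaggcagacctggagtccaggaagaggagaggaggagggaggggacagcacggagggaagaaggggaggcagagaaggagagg
Pbx4: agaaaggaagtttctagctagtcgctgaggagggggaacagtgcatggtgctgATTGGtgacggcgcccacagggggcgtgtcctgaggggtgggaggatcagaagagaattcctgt
The whole windows of 5 members were searched on both strands, since the table held no *Pbx3* entry. None of the 5 held TGACAG, the core site of MEIS proteins, TGATNNAT, the joint site of PBX and HOX proteins, or the E-boxes CAGATG and CAGCTG that ATOH1 can bind. These were present in 15.9%, 7.68% and 25.5% of all 32851 promoters. CCAAT was found 54 to 50 bases before the *Meis1* start and ATTGG from 197 bases before the *Pbx4* start, against 33.8% of all promoters with either. Further ATTGG matches lay in annotated exons, from 210 bases before the *Meis2* start and from 30 bases before the *Pbx4* start. A letter match or its absence in these windows says nothing about binding.

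The 14 libraries held 150188 barcodes in all and 108239001 to 236964126 unique molecular identifiers (UMIs) each. After filtering, 80250 cells remained, 3248 to 8726 per library with a median of 12010.5 to 20913 UMIs. No pair of libraries shared more than 67 barcodes. As a share of the smaller library the highest value was 0.624%, in another pair with 58 shared barcodes. Levels are given as CPM, the UMIs of the gene per 1000000 UMIs of the cells summed, with the SD over libraries. A gene was called where the adjusted p of edgeR's quasi-likelihood test on these sums was under 0.05 and the log2 change over 0.25 in size. The headers of E14.5 control libraries 1 and 2 name Cell Ranger 3.1.0 and all others 5.0.1. Between these controls and the E14.5 *Atoh1S193A/-* libraries, genotype and software version therefore cannot be told apart. *Atoh1* itself was read at 55.0 to 137 CPM in the E14.5 control libraries and at 86.2 to 144 CPM in the *Atoh1S193A/-* libraries. The S193A substitution is not read by 3′ counting, so these levels do not check the genotypes. PN-like cells, named from PN lineage markers, were 7.14 to 27.7% of the kept cells of the embryonic libraries and 58.5 and 59.8% at P5. The 8 granule lineage markers, none at 0 in any group, summed to 1128 to 1763 CPM in the E14.5 and 3297 to 3507 CPM in the E18.5 control libraries, to 1071 to 1663 and 3261 to 3621 CPM in the *Atoh1S193A/-* libraries of these stages, and to 1024 and 1218 CPM at P5. At P5 markers of cells outside the *Atoh1* lineage were also read, with microglia markers at 746 and 772 CPM against 0.61 to 37.4 CPM in the embryonic libraries. As the sorted cells include other rhombic lip derivatives, a change in sums over all cells cannot tell fewer cells of a type from less RNA per cell.

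Of the 6 cofactor genes, 5 were lower at E18.5 than at E14.5 in control hindbrains, and *Meis1* was the exception. *Meis2*, which in the embryo marks many differentiating neuron groups, was at 521, 883 and 680 CPM in the 3 E14.5 control libraries and at 49.0, 44.8 and 77.1 CPM at E18.5. The stages did not overlap, and the mean was 12.2-fold higher at E14.5 (log2 change to E18.5 -3.69 ± 0.30 SE, edgeR adjusted p = 0.000441). The granule lineage markers were higher at E18.5 without overlap, as given above, and their part in the falls over all cells was not tested beyond the fits in PN-like cells and in cells with no *Hox* UMI after thinning. At P5, in dissected PN and not whole hindbrain, *Meis2* was at 38.7 and 33.4 CPM, below each E18.5 control library. For this gene, and for *Pbx3* below, stage and tissue cannot be told apart at P5. *Pbx3*, a PBX protein found in many hindbrain nuclei, went from 217, 306 and 196 CPM at E14.5 to 84.1, 85.2 and 87.5 CPM at E18.5 (log2 change -1.57 ± 0.16, edgeR adjusted p = 0.000659). It was at 10.1 and 11.1 CPM at P5, so that each later stage lay below every library of the one before. The P5 level was below that of *Pbx3* in the microglia-like clusters of these libraries (12.04 and 26.5 CPM).

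*Pbx4*, a less studied PBX paralog, did not keep falling. It was at 37.7, 38.0 and 37.3 CPM at E14.5, at 18.1, 17.4 and 19.9 CPM at E18.5 and at 38.4 and 41.8 CPM in the P5 PN. Both P5 libraries lay above every control library of the earlier stages, but P5 tissue was dissected PN and not whole hindbrain, so stage and tissue cannot be told apart over all cells. In PN-like cells alone, the cells of clusters with PN lineage markers, *Pbx4* was at 28.0, 24.7 and 29.2 CPM at E14.5, at 22.1, 23.8 and 23.9 CPM at E18.5 and at 43.5 and 46.95 CPM at P5, so that the P5 libraries were again above all others. Over all cells the E14.5 to E18.5 fall was 1.11 on the log2 scale (SE 0.09, edgeR adjusted p = 0.000433). *Meis3*, the third MEIS paralog, was at 38.3, 48.6 and 37.5 CPM and then at 21.7, 17.9 and 18.2 CPM (log2 change -1.19 ± 0.13, edgeR adjusted p = 0.000677). *Pbx2*, a broadly expressed PBX protein, was at 27.2, 36.7 and 24.99 CPM and then at 20.5, 20.1 and 19.6 CPM (log2 change -0.64 ± 0.14, edgeR adjusted p = 0.00859). For both genes every E14.5 library lay above every E18.5 library. *Meis1*, which is best known for its role with HOX proteins in blood and limb, was at 211, 230 and 184 CPM and then at 206, 189 and 185 CPM, and these ranges overlapped (log2 change -0.19 ± 0.09, edgeR adjusted p = 0.103). Of all 10291 genes tested, 51.5% were called and 25.1% fell between the stages, so 5 falling members are set against that share.

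The same 5 genes fell in PN-like cells alone, where 31% of genes fell. There the *Meis2* change was -1.64 (edgeR adjusted p = 2.11e-05) and the *Pbx3* change -1.85 (edgeR adjusted p = 5.58e-06), while *Meis1* had a difference of 0.08 (edgeR adjusted p = 0.40). The fall was smaller there than over all cells for *Pbx4* (-0.33 ± 0.10, edgeR adjusted p = 0.0191) and *Pbx2* (-0.37 ± 0.13, edgeR adjusted p = 0.0291), though the difference between these nested fits was not tested. Progenitors-like cells were 7.89, 10.8 and 5.05% of the E14.5 control PN-like cells, and no such state was named at E18.5. *Pbx2* was at 16.5 CPM in E14.5 differentiated neurons-like and at 16.3, 16.0 and 12.3 CPM in E18.5 ePN1-like to ePN3-like control cells. *Pbx4* was at 36.6 CPM against 28.2, 25.6 and 19.4 CPM. The part of the mix of states in the falls over PN-like cells was not tested. *Meis3* fell by 1.41 on the log2 scale in PN-like cells (edgeR adjusted p = 2.53e-05). In cells with no *Hox* UMI after thinning to 5000 UMIs the *Meis2* change was -4.38 ± 0.41 (edgeR adjusted p = 0.000681), larger in size than in the PN-like cells, and 24.2% of genes fell.

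**Figure D1:**
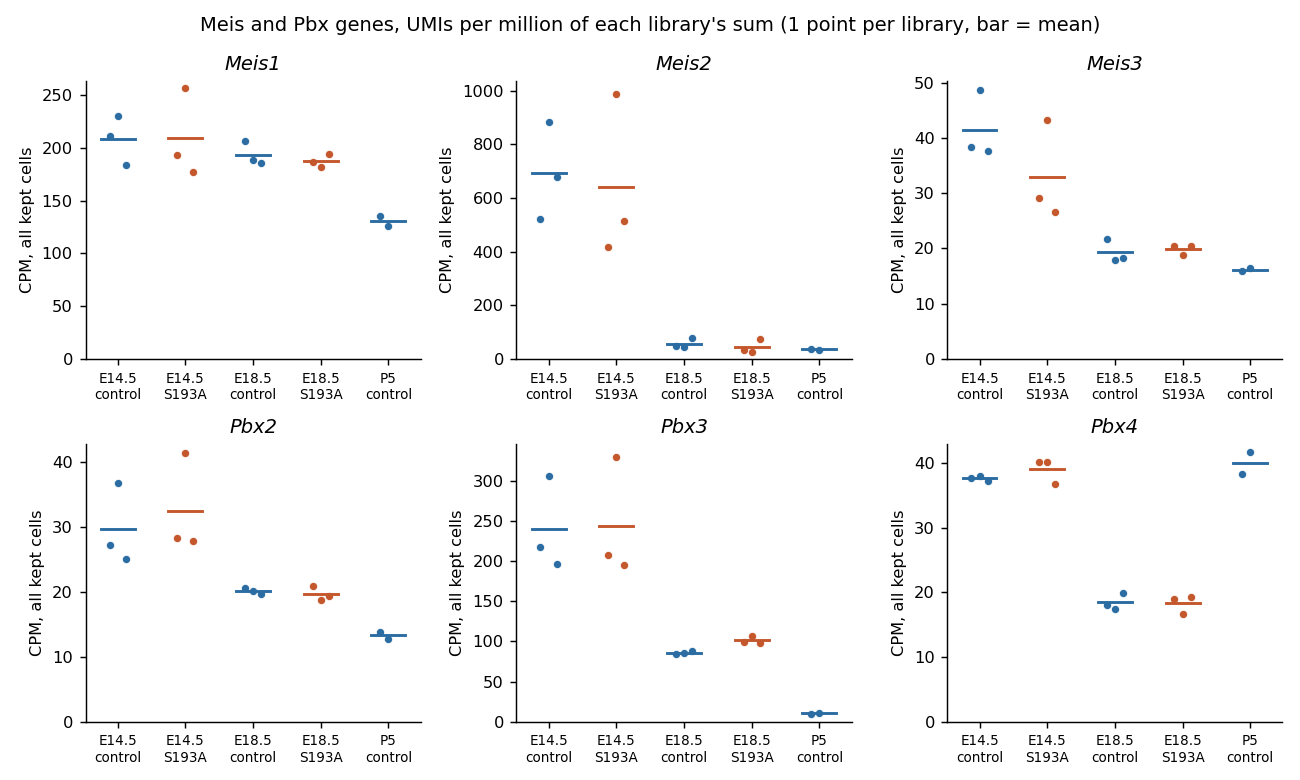
Level of each cofactor gene in all kept cells of each library (CPM, 1 panel per gene, 1 point per library, bars at the group means) by stage and genotype. *Meis2* and *Pbx3* step down from E14.5 to E18.5 in both genotypes, *Meis1* stays between 177 and 257 CPM in the embryonic libraries, and *Pbx4* at P5 (38.4 and 41.8 CPM) is back at its E14.5 level.

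Within the PN lineage at E14.5, cells were ordered from dividing progenitors to differentiated neurons by marker lists, and the states are called progenitors-like and so on since the clusters were rebuilt here. The lists were the study's own and were found on these same libraries. *Meis2* peaked in the middle of this order in the control libraries. It was at 149, 202 and 194 CPM in progenitors-like cells, at 490, 438 and 561 CPM in migrating neurons-1-like cells, at 766, 731 and 943 CPM in migrating neurons-2-like cells and at 212, 403 and 258 CPM in differentiated neurons-like cells. Migrating neurons-2-like cells lay above all other states in every control library, and the differentiated neurons-like cells lay again below both migrating states. Over both genotypes, the migrating neurons-2-like state joined subclusters of 778, 484, 128 and 101 cells. The smallest was led by *Hoxb8*, *Hoxb6* and *Hoxa7*, and that of 128 cells had *Lhx2* among its leading genes. Whether these cells belong to the PN lineage was not tested.

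In the control libraries *Meis1* was highest in differentiated neurons-like cells, while *Meis3* had its highest mean in migrating neurons-2-like cells. *Meis1* was at 175 ± 6.1 CPM in progenitors-like cells, at 206 and 236 CPM in the migrating states and at 275 ± 13.3 CPM in differentiated neurons-like cells (SD, n = 3 libraries), with overlap only between progenitors-like and intermediate progenitors-like cells. *Meis3* was at 2.1, 9.9 and 2.7 CPM in progenitors-like cells and at a mean of 10.5 CPM in intermediate progenitors-like cells (2 libraries). It was at 70.7, 78.3 and 69.8 CPM in migrating neurons-2-like cells and at 58.1, 76.3 and 59.3 CPM in differentiated neurons-like cells, lower within each library although the ranges overlapped. Few UMIs stand behind the progenitors-like values of *Meis3*, since only 67, 106 and 75 control cells had this state.

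The PBX genes followed separate courses through the same states. *Pbx3* went from 80.4 CPM in progenitors-like cells to 253 CPM in migrating neurons-2-like and 208 CPM in differentiated neurons-like cells. *Pbx2* ran the other way, from 36.7 CPM in progenitors-like cells to 13.0 CPM in migrating neurons-2-like cells. *Pbx4* was at 33.6 CPM in progenitors-like cells, at 10.5 CPM in intermediate progenitors-like cells and back at 36.6 CPM in differentiated neurons-like cells. These are descriptions without a test, since the states were made from the same cells.

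At E18.5 the embryonic PN neuron subtypes ePN1-like to ePN3-like differed most in *Meis2*, *Meis1* and *Pbx3*. *Meis2* was at 314 ± 22.1 CPM in migrating neurons-like cells, 242 CPM in ePN1-like, 85.0 CPM in ePN3-like and 36.0 CPM in ePN2-like cells (SD, n = 3). *Meis1* was highest in ePN1-like cells, at 394, 333 and 400 CPM, with the means of the other named states at 201 to 264 CPM and overlapping their neighbours. PN-like cells that matched no named state, 301 in the E18.5 control libraries and 1988 at P5, were left out of these orders, and at E18.5 they had *Meis1* at 360, 299 and 288 CPM, which overlaps ePN1-like cells. *Pbx3* was at 151 CPM in migrating neurons-like cells but at 32.5 CPM in ePN1-like and 5.9 ± 2.8 CPM in ePN2-like cells. The intermediate progenitors-like level of *Meis2*, 478 CPM, rests on only 20, 16 and 10 cells. ePN4-like cells reached 10 in 1 control library alone, and its 47 cells gave 231 CPM of *Meis2* and 164 CPM of *Pbx3*.

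In the P5 PN, where postnatal subtypes PN1-like to PN6-like were separated, *Meis1* and *Meis2* were both highest in PN3-like cells and *Pbx4* was low there. *Meis1* in PN3-like cells was at 227 and 211 CPM in the 2 libraries, against 90.0 and 84.7 CPM in PN1-like and 92.7 and 79.8 CPM in PN6-like cells. *Meis2* was at 68.9 and 60.9 CPM in PN3-like cells, at 45.1 and 36.0 CPM in PN5-like cells and at 6.1 and 4.7 CPM in PN4-like cells. The last value is near that of microglia-like clusters in the same libraries, which should lack neuronal transcripts and read 3.3 and 3.5 CPM (means of 2 clusters over both libraries), and is not taken as expression.

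*Pbx4* was at 49.96 and 54.5 CPM in PN1-like, at 50.1 and 53.7 CPM in PN6-like and at 48.4 and 53.1 CPM in PN4-like cells, against 34.3 and 36.2 CPM in PN3-like and 30.3 and 29.0 CPM in PN5-like cells. PN4-like and PN5-like cells, at the upper and lower end in *Pbx4*, had nearly the same *Meis1* level, 144 and 138 CPM against 143 and 137 CPM. *Meis3* stayed between 12.5 and 18.9 CPM, *Pbx2* between 9.7 and 15.5 CPM and *Pbx3* between 2.4 and 9.8 CPM over all 6 subtypes and both libraries. In the 2 microglia-like clusters these genes read higher than in any of the subtypes. *Meis3* was there at 24.9 and 21.3 CPM, *Pbx2* at 31.3 and 30.1 CPM and *Pbx3* at 12.04 and 26.5 CPM. Some other P5 clusters read lower than the subtypes, with *Meis3* at 9.3 CPM in the astroglia-like cluster and *Pbx3* at 1.7 CPM in a granule lineage-like cluster. *Pbx2* was lowest in a PN-like cluster (10.8 CPM). Whether microglia express these 3 genes themselves was not tested, so neither expression nor its absence in P5 PN neurons is read from these levels. *Meis1* (9.8 and 13.4 CPM) and *Pbx4* (3.0 and 3.5 CPM) were lower in the microglia-like clusters than in every subtype.

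**Figure D2:**
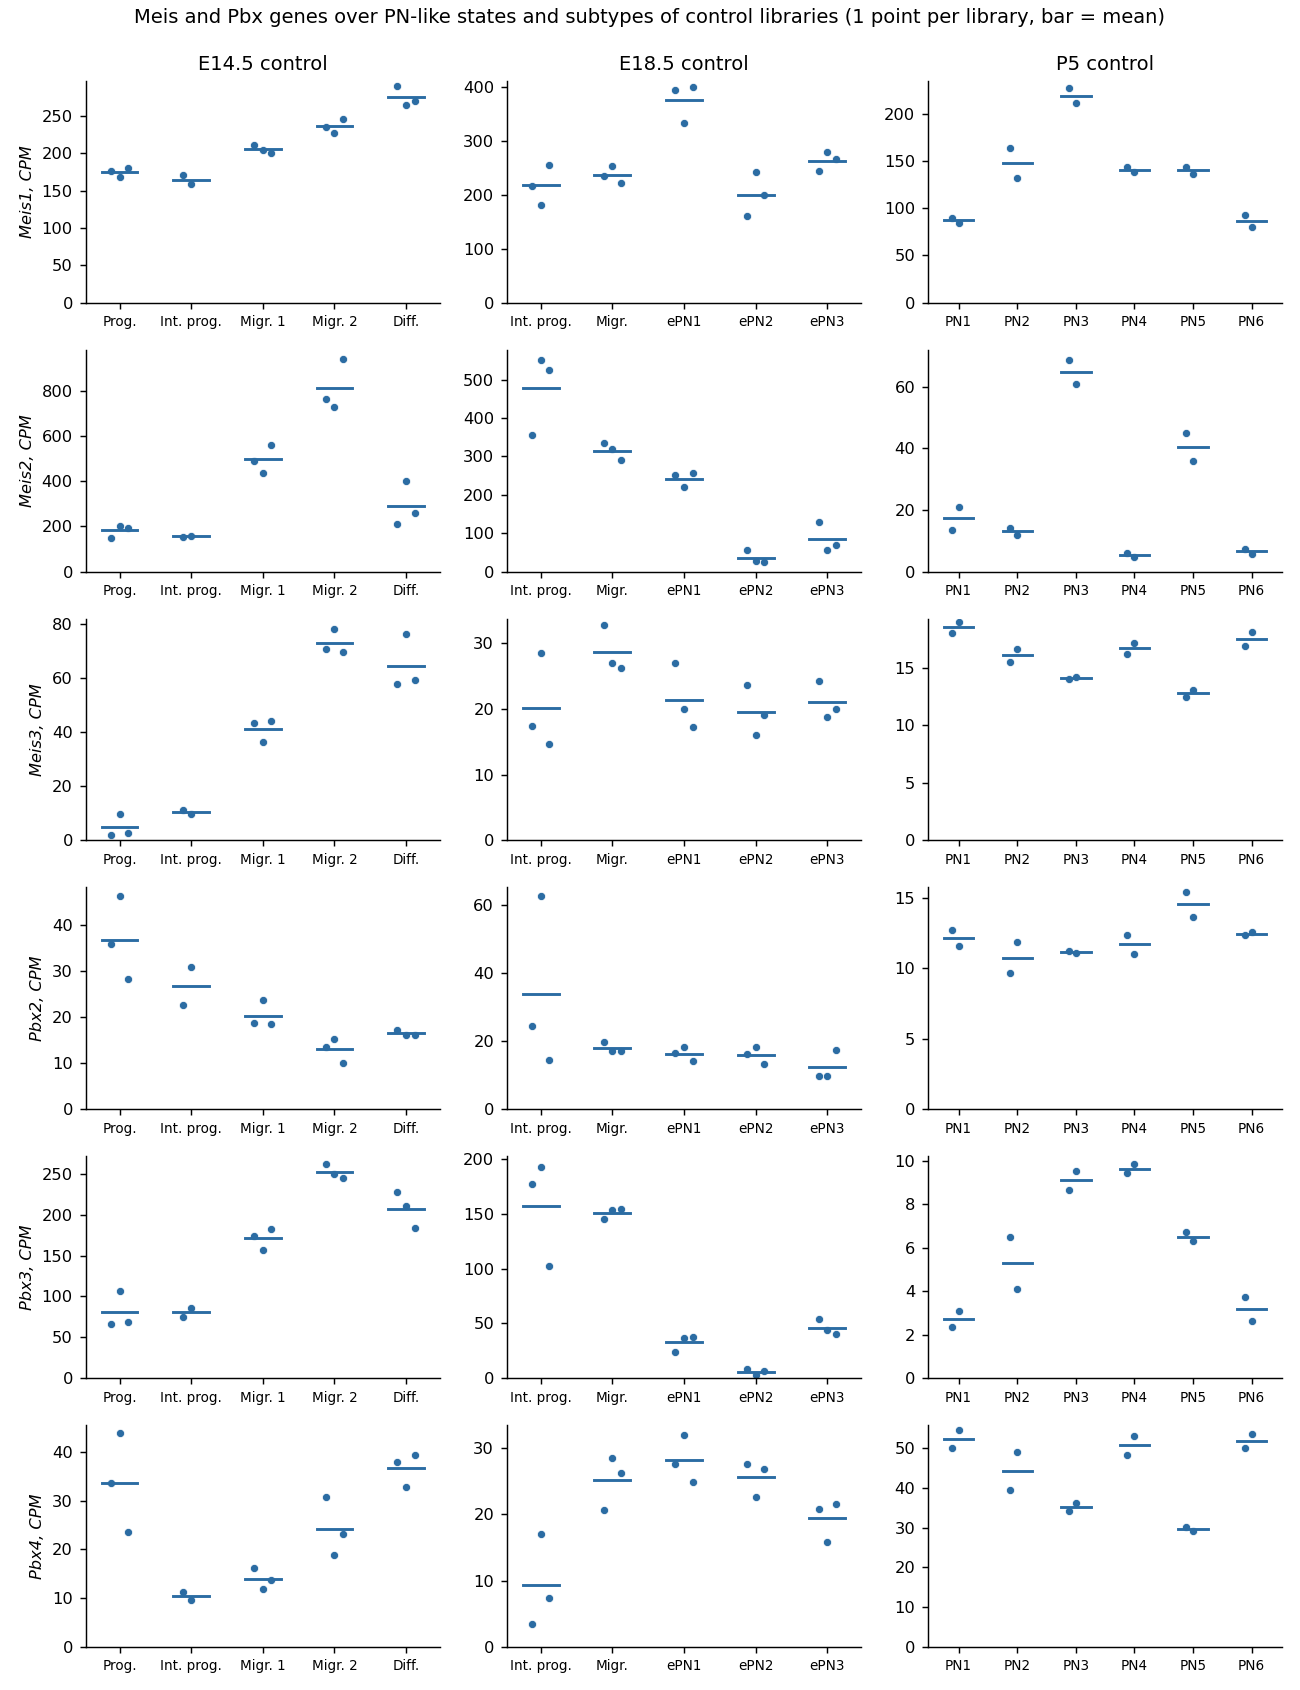
Level of each cofactor gene (CPM) in the rebuilt PN-like states and subtypes of control libraries at E14.5, E18.5 and P5, with 1 point per library. *Meis2* peaks at 731 to 943 CPM in migrating neurons-2-like cells at E14.5, and *Meis1* is highest in ePN1-like cells at E18.5 and in PN3-like cells at P5.

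To compare cells by their *Hox* expression, each cell was thinned to 5000 UMIs and counted as *Hox*-positive with at least 2 UMIs over the 39 *Hox* genes and *Hox*-negative with 0. Cells with 1 *Hox* UMI (8852) and cells under 5000 UMIs (2784) were left out, leaving 19588 *Hox*-positive and 49026 *Hox*-negative cells. *Hox*-positive cells made up 35.4 to 48.6% of cells at E14.5, 5.38 to 15.6% at E18.5 and 23.1 to 25.9% at P5. Before thinning, the 39 *Hox* genes summed to 2188 to 2667 CPM in *Hox*-positive and 26.0 to 34.5 CPM in *Hox*-negative cells of the E14.5 control libraries, and to 1068 to 1157 CPM and 8.06 to 18.9 CPM at E18.5. At P5 they summed to 497 and 502 CPM in *Hox*-positive and still to 119 and 98.8 CPM in *Hox*-negative cells, so the *Hox*-negative class there was not free of *Hox* UMIs.

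At E14.5, *Meis3* was higher and *Pbx2* lower in *Hox*-positive cells of each control embryo. *Meis3* was at 46.9, 56.8 and 48.6 CPM in *Hox*-positive and at 30.3, 40.3 and 30.3 CPM in *Hox*-negative cells, without overlap (log2 difference 0.60 ± 0.06, edgeR adjusted p = 0.00101 with embryo as a block). *Pbx2* was at 23.2, 32.5 and 20.4 CPM against 30.1, 40.4 and 27.4 CPM, lower in 3 of 3 embryos although the classes overlapped between embryos (-0.37 ± 0.06, edgeR adjusted p = 0.00578). *Meis1* was at 243, 231 and 224 CPM against 176, 226 and 157 CPM, with the second embryo nearly level (0.34 ± 0.10, edgeR adjusted p = 0.0408).

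These 3 of 6 members stand beside 29.9% of the 10043 genes tested, 14% higher and 15.8% lower. The *Meis1* call was lost without control 1 or control 3 (edgeR adjusted p = 0.188 and 0.198), and the *Pbx2* call without control 3 (edgeR adjusted p = 0.0587). *Meis2* was at 593, 755 and 669 CPM in *Hox*-positive and at 430, 998 and 660 CPM in *Hox*-negative cells, higher in some embryos and lower in another (0.03 ± 0.15, edgeR adjusted p = 0.899). *Pbx3* differed by 0.17 ± 0.08 (edgeR adjusted p = 0.129) and *Pbx4* by 0.01 ± 0.06 (edgeR adjusted p = 0.893).

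**Figure D3:**
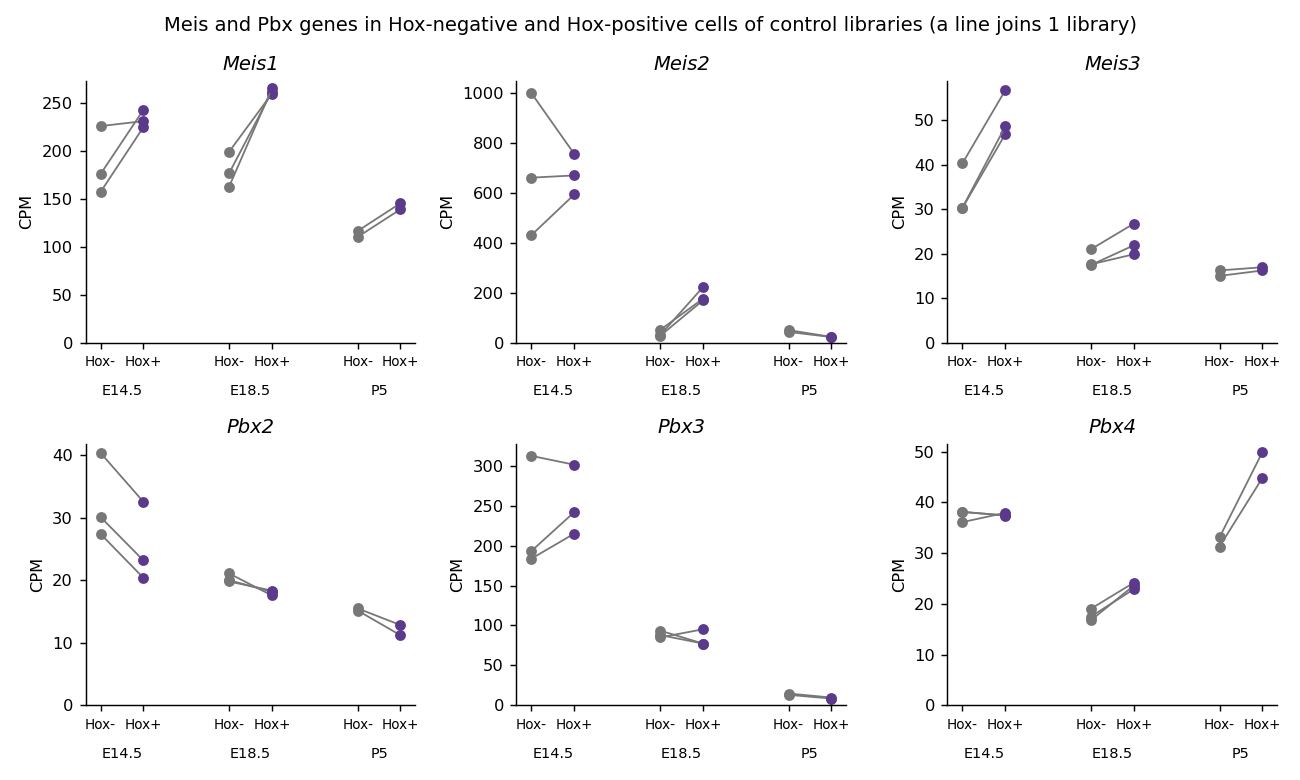
Level of each cofactor gene (CPM) in *Hox*-positive and *Hox*-negative cells of each control library, joined by a line per library, at E14.5, E18.5 and P5. *Meis2* shows no common direction at E14.5, is higher in *Hox*-positive cells of all 3 embryos at E18.5 (168 to 221 CPM against 26.5 to 50.2 CPM) and is higher in *Hox*-negative cells at P5.

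Dividing cells made up 4.58, 3.66 and 3.75% of the *Hox*-positive and 23.1, 9.54 and 19.7% of the *Hox*-negative cells of the E14.5 control embryos, so the classes were also compared within dividing cells and within neurons. In dividing cells *Meis2* was at 250, 216 and 288 CPM with and at 76.1, 103 and 63.9 CPM without *Hox* UMIs, without overlap (1.67 ± 0.31, edgeR adjusted p = 0.116). In neurons it was at 647, 797 and 709 CPM with and at 673, 1233 and 922 CPM without, lower in each embryo (-0.34 ± 0.10, edgeR adjusted p = 0.0676). In dividing cells 13.4% and in neurons 17.3% of genes passed. Neither *Meis2* difference alone passed, but the difference between them did (1.99 ± 0.31, edgeR adjusted p = 0.0169), as it did for 12.8% of genes.

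The difference between the classes also depended on division for 3 other members. *Meis3* was at 3.8, 11.8 and 3.8 CPM in dividing *Hox*-positive and at 13.6, 12.8 and 10.9 CPM in dividing *Hox*-negative cells, the reverse of its order over all cells, but the difference did not pass (-0.86 ± 0.29, edgeR adjusted p = 0.0651). In neurons *Meis3* remained higher with *Hox* UMIs (0.41, edgeR adjusted p = 0.00130), and the interaction was -1.26 ± 0.28 (edgeR adjusted p = 0.0133). *Pbx3* was lower in dividing *Hox*-positive cells, at 86.4, 112 and 92.8 CPM against 129, 149 and 110 CPM (-0.39, edgeR adjusted p = 0.00169), and changed by 0.02 in neurons, with an interaction of -0.44 ± 0.10 (edgeR adjusted p = 0.0163). *Pbx2* was lower with *Hox* UMIs in neurons (-0.49, edgeR adjusted p = 0.00147) and not in dividing cells (0.32, edgeR adjusted p = 0.152), with an interaction of 0.79 ± 0.14 (edgeR adjusted p = 0.00266). *Meis1* was higher with *Hox* UMIs in dividing cells (0.32, edgeR adjusted p = 0.0226), while its difference in neurons did not pass (0.25, edgeR adjusted p = 0.138), and its interaction was 0.05 ± 0.17 (edgeR adjusted p = 0.906). The dividing *Hox*-positive class held 70, 101 and 90 cells, with 1585174, 2538075 and 1853055 UMIs over all genes. Few UMIs therefore stand behind its *Meis3* values.

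**Figure D4:**
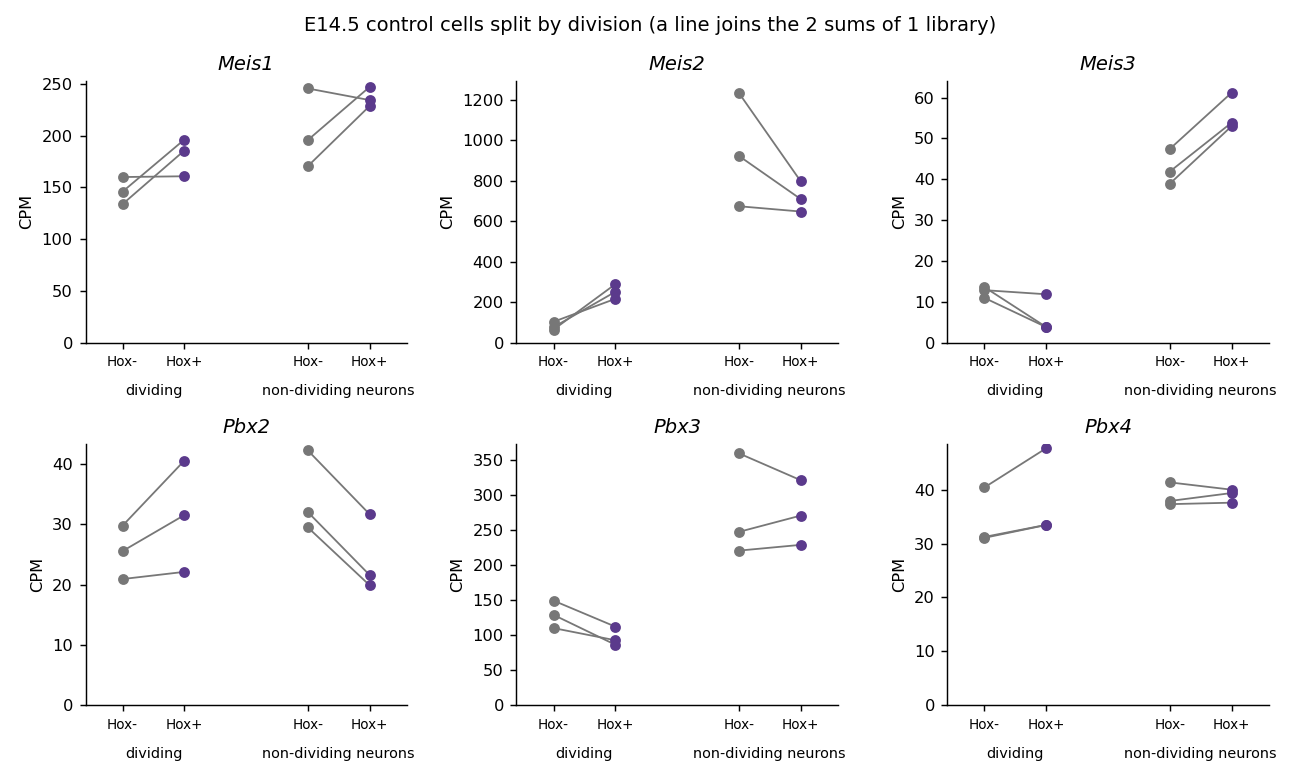
Level of the cofactor genes (CPM) in *Hox*-positive and *Hox*-negative cells of the E14.5 control embryos, split into dividing cells and neurons, with 1 point per embryo. In dividing cells *Meis2* is at 216 to 288 CPM with *Hox* UMIs and at 63.9 to 103 CPM without, while in neurons the order is turned.

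At E18.5 the cofactor gene that separated the classes most was *Meis2*. It was at 221, 168 and 175 CPM in *Hox*-positive and at 29.1, 26.5 and 50.2 CPM in *Hox*-negative cells of the control embryos, without overlap (2.42 ± 0.34, edgeR adjusted p = 0.0182). The call was lost without control 1 or control 2, with log2 differences of 2.17 to 2.78 and adjusted p up to 0.135 over the fits that leave out 1 embryo. *Meis1* was at 260, 262 and 265 CPM against 199, 176 and 162 CPM (0.52 ± 0.06, edgeR adjusted p = 5.98e-05). *Pbx4* was at 22.9, 23.6 and 24.2 CPM against 17.5, 16.8 and 19.0 CPM (0.37 ± 0.07, edgeR adjusted p = 0.00104). Both genes were higher in every *Hox*-positive sum than in any *Hox*-negative sum. At this stage 66.6% of 10636 genes were called, 32.8% higher and 33.8% lower in *Hox*-positive cells, so the 3 of 6 members called are not a larger share than that of genes at large.

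*Meis3* differed by 0.25 ± 0.08 and fell short of the size limit, *Pbx2* by -0.20 (edgeR adjusted p = 0.0345) and also fell short of it, and *Pbx3* by -0.13 (edgeR adjusted p = 0.254). Only 3.84 to 6.10% of *Hox*-positive cells but 33.2 to 36.8% of *Hox*-negative cells were dividing at E18.5. Within neurons *Meis2* was at 228, 171 and 175 CPM against 54.2, 47.7 and 86.8 CPM (1.63 ± 0.31, edgeR adjusted p = 0.0381). *Meis1* (0.47, edgeR adjusted p = 0.000143) and *Pbx4* (0.29, edgeR adjusted p = 0.00759) were also higher in *Hox*-positive neurons, and *Pbx2* was lower (-0.31, edgeR adjusted p = 0.00398). The direction of *Meis3* turned within neurons, where it was at 28.1, 22.5 and 20.5 CPM in *Hox*-positive and at 30.7, 26.4 and 25.9 CPM in *Hox*-negative cells, lower in each embryo but short of the size limit (-0.23, edgeR adjusted p = 0.0141). Within dividing cells *Meis2* was at 92.5, 81.2 and 101 CPM against 5.6, 7.9 and 8.0 CPM (3.64 ± 0.26, edgeR adjusted p = 9.32e-15), on 16, 26 and 28 *Hox*-positive cells. It was the one member called in dividing cells, where 10.2% of genes were, against 53% in neurons. The *Meis2* difference was thus called in both compartments, and no member showed an interaction with division at this stage, where 15.9% of genes did.

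The *Hox*-class difference itself changed between stages for 3 members. For *Meis2* it was 2.39 ± 0.34 log2 units larger at E18.5 than at E14.5 (edgeR adjusted p = 0.00165), and 1.99 ± 0.32 in neurons alone (edgeR adjusted p = 0.00494). For *Pbx4* it was larger by 0.35 ± 0.08 (edgeR adjusted p = 0.00591), and for *Meis3* it was smaller by 0.37 on the log2 scale (edgeR adjusted p = 0.00694). Of all genes 51.2% passed this test, and 46.7% in neurons.

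The graded levels behind this comparison differed by gene. At E14.5, cells with 0, 1, 2, 3 to 4 and at least 5 *Hox* UMIs had *Meis2* at 696, 803, 976, 848 and 609 CPM, so that the highest mean was in the middle. At E18.5 the same bins had 35.3, 99.9, 125, 116 and 273 CPM, and at P5 46.1, 32.9, 26.7, 20.5 and 13.8 CPM. The course was mostly upward at E18.5 and downward at P5. By the highest *Hox* paralog group with a UMI, E14.5 cells with groups 1 to 3 had *Meis2* at 1015 CPM, with groups 4 to 5 at 590 CPM and with group 6 and above at 562 CPM. *Meis1* was at 248, 238 and 180 CPM in these classes, and *Meis3* at 38.9, 52.2 and 48.6 CPM.

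At P5, with 2 libraries and no test, *Meis2* was at 22.6 and 21.9 CPM in *Hox*-positive and at 49.8 and 42.4 CPM in *Hox*-negative cells, the opposite order to E18.5. P5 tissue was dissected PN and E18.5 tissue whole hindbrain. PN-like cells were 58.5 and 59.8% of the P5 cells but 7.44, 9.81 and 17.0% of the E18.5 control cells. Stage, tissue and the cell types within each class therefore cannot be told apart in this change of order. *Pbx4* was at 44.8 and 49.9 CPM against 31.3 and 33.1 CPM, and *Meis1* at 145 and 139 CPM against 116 and 110 CPM, both higher with *Hox* UMIs. *Pbx3* was at 8.4 and 9.6 CPM against 13.0 and 14.7 CPM. In non-dividing neurons alone *Pbx3* was at 8.1 and 9.7 CPM against 10.5 and 9.7 CPM, level in the second library. The order of the other 3 genes was kept in neurons, with *Meis2* at 20.8 and 21.2 CPM against 49.8 and 44.5 CPM, *Pbx4* at 45.0 and 50.1 CPM against 36.8 and 39.8 CPM, and *Meis1* at 146 and 140 CPM against 135 and 133 CPM. *Hox*-positive cells had a median of 29742 and 32566.5 UMIs and *Hox*-negative cells of 14696 and 14845, so the classes also differed in depth at P5, and its part in these values was not tested. The *Meis2* level of the PN-like clusters was 2.9 to 78.0 CPM, against 254 CPM in the astroglia-like cluster, 210 and 11.4 CPM in the oligodendrocyte lineage-like clusters and 1189 ± 121 CPM in the inhibitory neurons-like cluster of 71 cells.

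Over clusters of control cells the members were spread widely, and clusters were made without the members themselves. At E14.5 the highest of 32 clusters in *Meis2* was at 2018 ± 312 CPM and was led by *Nrgn*, *Zfp703* and *Ebf2*, and the lowest was at 42.8 ± 9.4 CPM and was led by *Sp5*, *Ccnd2* and *Eomes*. *Pbx3* was highest, at 742 ± 144 CPM, in a cluster led by *Foxp2*, *Nr4a2* and *Cdh18*. *Pbx4* was highest, at 102 CPM, in a cluster led by *Kcne2*, *Sostdc1* and *Ttr*, genes known from choroid plexus. Across clusters, which share libraries and depth, *Meis2* had a Pearson r with the summed *Hox* level of 0.11 at E14.5 (32 clusters), 0.89 at E18.5 (28 clusters) and 0.35 at P5 (27 clusters). Spearman's rho was 0.08, 0.74 and 0.46. At E18.5 the highest *Meis2* cluster, at 974 ± 31.7 CPM, was led by *Zfhx3*, *Fxyd7*, *Sst* and *Lhx9*. Its summed *Hox* level was 655 ± 467 CPM. The E18.5 PN-like clusters, with 2302, 1554 and 539 CPM of *Hox*, had *Meis2* at 182.5, 438 and 98.1 CPM. The median *Meis2* level over the 28 clusters was 11.1 CPM, so many low clusters enter this r and it does not show a graded relation. *Pbx4* at P5 had r = 0.65, *Meis1* r = 0.57 and *Pbx2* r = -0.56. The P5 clusters include microglia-like, endothelium-like and other clusters outside the PN lineage. *Pbx2* was at 10.8 to 14.9 CPM in the PN-like and at 30.1 to 31.3 CPM in the microglia-like clusters. These r values therefore do not describe PN neurons alone.

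The genes most alike to each member over the 32 E14.5 clusters, by Pearson r of log2(CPM + 1), were *Pak3*, *Chn1* and *Tmem163* for *Meis2* (0.88, 0.86 and 0.86) and *Lrp3*, *Shd* and *Dlgap4* for *Meis3* (0.92, 0.91 and 0.91). They were *Btbd9*, *Dclk2* and *Ttyh3* for *Meis1* (0.79, 0.77 and 0.76) and *Mvb12b*, *Fam19a1* and *Gdap1* for *Pbx3* (0.79 each). For *Pbx4* they were *Idh3a*, *BC005624* and *Actr6* (0.84, 0.83 and 0.83), and for *Pbx2* *Tmem234*, *Zfhx3* and *Isyna1* (0.77, 0.76 and 0.73). Among the members, the most alike pair was *Meis2* with *Pbx3* (0.70), followed by *Meis2* with *Meis3* (0.62) and *Meis3* with *Pbx3* (0.61).

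Between genotypes, no cofactor gene passed over all sorted cells at either stage in fits that left out the replicate number. Same-numbered embryos deviated together, so fits with that number as a block are given beside them. At E14.5 *Meis2* was at 417, 988 and 513 CPM in *Atoh1S193A/-* embryos, with 2 values below and 1 above the control range of 521 to 883 CPM (-0.16 ± 0.34). *Meis3* was at 29.2, 43.3 and 26.5 CPM, lower than its same-numbered control each time (-0.36 ± 0.19, edgeR adjusted p = 0.512). *Pbx3* was at 208, 330 and 195 CPM, *Meis1* at 192.8, 257 and 177 CPM, *Pbx2* at 28.2, 41.3 and 27.8 CPM and *Pbx4* at 40.2, 40.1 and 36.8 CPM, each overlapping the controls. edgeR called 2 of 10241 genes (0.0195%, with 1195 at an unadjusted p under 0.05) and DESeq2 250, with 0 of 6 members in either and 0 at an unadjusted p under 0.05 in edgeR. In same-numbered pairs 1 and 2 the Cell Ranger version differs along with the genotype, so these cannot be told apart there. With the replicate number as a block, edgeR called 1826 genes (17.8%), and *Meis3* was lower (-0.38, edgeR adjusted p = 0.0116). Dividing cells, low in *Meis3*, were 428 of 3144, 431 of 6282 and 859 of 6415 cells in control but 1009 of 4683, 741 of 6856 and 1356 of 6393 cells in *Atoh1S193A/-* embryos, a higher share in each pair, and their part in this difference was not tested.

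At E18.5 *Meis2* was at 34.3, 24.6 and 73.3 CPM in *Atoh1S193A/-* embryos, overlapping the controls but lower than the same-numbered control in 3 of 3 pairs (-0.39 ± 0.42, with the block -0.48 ± 0.18, edgeR adjusted p = 0.827). With 1 library left out the difference without the block ran from -0.97 to -0.10. *Pbx3* was at 98.7, 106 and 98.4 CPM, above every control library, but did not pass the test (0.23 ± 0.07, edgeR adjusted p = 1). edgeR called 0 of 9883 genes (0%), with 117 at an unadjusted p under 0.05, among them 1 member, and DESeq2 called 13 genes and no member. The interaction of genotype with stage called 0 of 10533 genes (791 at an unadjusted p under 0.05).

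Within the E14.5 PN-like states, none of 30 member tests passed in edgeR without the block or in DESeq2. In edgeR 6 had an unadjusted p under 0.05, beside 142 to 508 genes per state of 9036 to 10068 tested. The share of genes called was 0.155% in intermediate progenitors-like, 0.0199% in progenitors-like and 0% in the other states. *Meis2* went in both directions, with a difference of -0.41 ± 0.12 in migrating neurons-1-like and of 0.37 ± 0.13 in intermediate progenitors-like cells. *Meis1* differed by 0.43 ± 0.15 in intermediate progenitors-like cells. *Pbx3* differed by 0.49 ± 0.17 in differentiated neurons-like, 0.42 ± 0.17 in intermediate progenitors-like and 0.28 ± 0.10 in migrating neurons-1-like cells. With the block, which had only pairs 1 and 3 in intermediate progenitors-like cells, the *Meis1* change there was called (0.41, edgeR adjusted p = 0.0209), as were 2.22% of genes. Over all PN-like cells together 7.45% of genes but no member passed, with *Meis3* at -0.52 (edgeR adjusted p = 0.0806). With the block 24.8% passed, among them *Meis3* (-0.53, edgeR adjusted p = 0.00467), *Meis2* (-0.36, edgeR adjusted p = 0.0293) and *Pbx2* (0.34, edgeR adjusted p = 0.0138). Progenitors-like cells were 7.89, 10.8 and 5.05% of the control and 26.3, 31.8 and 27.4% of the *Atoh1S193A/-* PN-like cells, and this was the state in which *Meis2* and *Meis3* were low and *Pbx2* was high. The part of that share in the values over all PN-like cells was not tested beyond the tests within states.

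In the E18.5 states 1 of 24 member tests passed. In migrating neurons-like cells *Meis2* was at 334, 318 and 290 CPM in control and at 225, 151 and 168 CPM in *Atoh1S193A/-* embryos, without overlap (-0.77 ± 0.11, edgeR adjusted p = 0.00382). These sums came from 105, 130 and 109 control and 149, 62 and 70 *Atoh1S193A/-* cells. The migrating neurons-like state joined subclusters of 260, 188 and 177 cells over both genotypes. The largest was led by *Cadps2*, *Fbxl7* and *Pimreg*, with *Gad2* among its leading genes. *Robo3* led the others, with *Nhlh1* among their leading genes. The part of this mix in the *Meis2* result was not tested. Of 9551 genes 7 were called (0.0733%), and another was *Hoxc4* (-1.55 ± 0.22, edgeR adjusted p = 0.00320), a *Hox* gene of the list of 39. The *Meis2* change ran from -0.96 to -0.67 with 1 library left out, and the call was lost without control 2 (edgeR adjusted p = 0.0513) or without *Atoh1S193A/-* 2 (edgeR adjusted p = 0.0902). Summed markers of the migrating state were at 5715 to 6261 CPM in control and 5355 to 6339 CPM in *Atoh1S193A/-* cells, which overlapped. Summed inhibitory neuron markers in the same cells were at 149 to 208 CPM and 222 to 283 CPM, and their part in the *Meis2* result was not tested.

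In ePN2-like cells *Meis2* was at 55.1, 27.7 and 25.1 CPM in control and at 10.7, 12.8 and 17.98 CPM in *Atoh1S193A/-* embryos, again without overlap, but did not pass (-1.31 ± 0.38). With 1 library left out this difference ran from -1.63 to -0.92. In ePN1-like cells *Meis2* differed by -0.13 and in ePN3-like cells by 0.13. In the PN-like cells that matched no named state *Meis2* was at 78.9, 52.4 and 74.5 CPM in control and at 29.0, 12.3 and 24.1 CPM in *Atoh1S193A/-* embryos, lower without overlap, and this class was not tested on its own. Over all PN-like cells at E18.5 *Meis2* was at 187, 148 and 130 CPM in control and at 107, 85.8 and 81.6 CPM in *Atoh1S193A/-* embryos (-0.76 ± 0.14, edgeR adjusted p = 0.624, called with the block at an edgeR adjusted p of 1.14e-06). Here 0.0101% of genes passed without and 0.594% with the block. ePN1-like cells, high in *Meis2*, were 16.4, 14.8 and 19.7% of the control but 4.98, 5.94 and 7.78% of the *Atoh1S193A/-* PN-like cells. ePN2-like cells, low in *Meis2*, were 16.9, 17.2 and 26.5% against 25.8, 24.8 and 28.2%, and the part of these shares in the value over all PN-like cells was not tested beyond the tests within states.

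**Figure D5:**
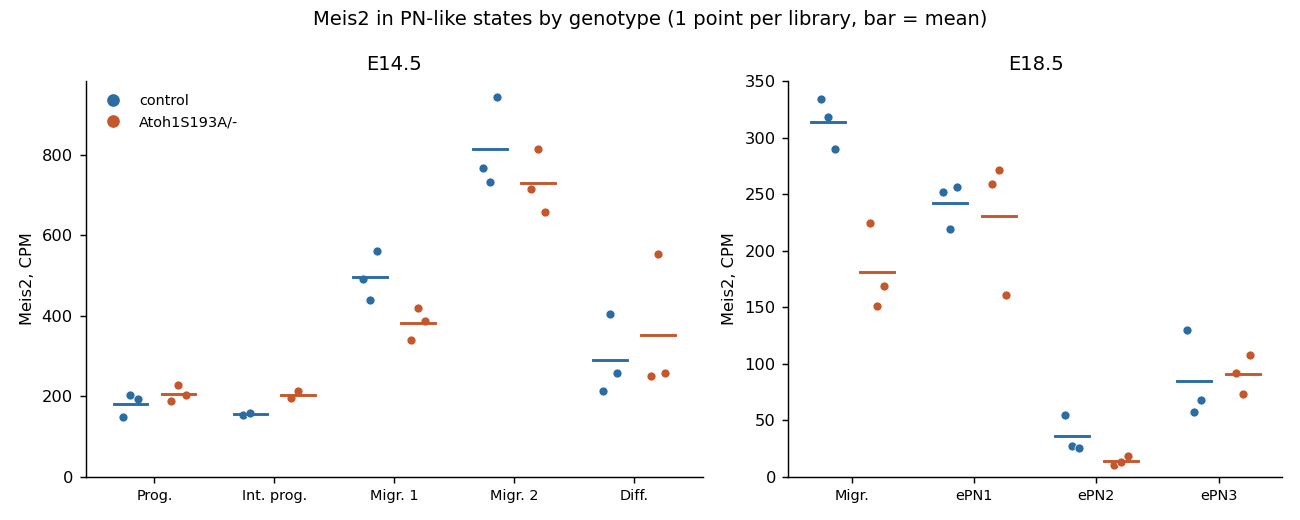
*Meis2* level (CPM) in control and *Atoh1S193A/-* embryos within the tested PN-like states at E14.5 and E18.5, 1 point per embryo. In E18.5 migrating neurons-like cells the 3 control embryos (290 to 334 CPM) lie above the 3 *Atoh1S193A/-* embryos (151 to 225 CPM).

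Genotype was also compared within the *Hox* classes. Without the block no member passed in *Hox*-positive cells at E14.5, where 1.68% of 10162 genes were called, or at E18.5. At E18.5 edgeR called 0 of 10043 genes, with 272 at an unadjusted p under 0.05. *Meis2* in *Hox*-positive cells at E18.5 was at 128, 118 and 122 CPM in *Atoh1S193A/-* embryos, below each of the control values given above (edgeR adjusted p = 0.526), and was called with the block (-0.62, edgeR adjusted p = 0.00628), where 0.0398% of genes were. As given above, ePN1-like cells, high in *Meis2*, were a smaller share of the *Atoh1S193A/-* PN-like cells. The part of such shares in this *Meis2* value was not tested. *Meis3* was called with the block at E14.5 in *Hox*-positive (-0.31, edgeR adjusted p = 0.0386, 9.94% of genes) and in *Hox*-negative cells (-0.40, edgeR adjusted p = 0.0253, 14.7% of genes). Dividing cells were 4.58, 3.66 and 3.75% of *Hox*-positive cells in control and 11.8, 9.15 and 11.8% in *Atoh1S193A/-* embryos. In *Hox*-positive neurons alone, with no test, *Meis3* was at 53.8, 61.2 and 53.0 CPM in control and at 52.1, 63.6 and 47.2 CPM in *Atoh1S193A/-* embryos, overlapping and higher in the second pair. In *Hox*-negative neurons it was at 41.9, 47.4 and 38.9 CPM against 34.9, 48.1 and 36.0 CPM, again higher in the second pair. The interaction of genotype with *Hox* class called 0 genes at E14.5 and at E18.5, with 498 and 527 at an unadjusted p under 0.05.

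Of 6 other TALE and PBX-binding genes, 4 passed the filter on low values in each *Hox*-class comparison. At E14.5, *Pknox1* (0.68 ± 0.07, edgeR adjusted p = 0.00121) and *Pknox2*, relatives of the MEIS genes that also bind PBX proteins, were higher in *Hox*-positive cells, and *Tgif1* and *Tgif2* (-0.76 ± 0.11, edgeR adjusted p = 0.00379), TALE repressors, were lower, with a median of 0.02 over the 4. At E18.5 *Pknox2* was higher (0.49 ± 0.11, edgeR adjusted p = 0.00175) and both *Tgif* genes lower, *Tgif1* by -2.51 ± 0.18 (edgeR adjusted p = 8.46e-06), with a median of -1.33. *Pknox1*, higher at E14.5, had a log2 difference of -0.22 ± 0.05 at E18.5, short of the size limit (edgeR adjusted p = 0.00370). Among retinoid genes and *Hox* regulators, *Crabp1*, a retinoic acid binding protein gene, was higher in *Hox*-positive cells by 5.90 ± 0.07 at E14.5 (edgeR adjusted p = 1.26e-06), while *Ezh2*, a Polycomb methyltransferase gene, had a log2 difference of -0.32 (edgeR adjusted p = 0.00661). At E18.5 *Crabp1* was higher by 6.88, and *Ezh2* had a log2 difference of -1.10 (edgeR adjusted p = 2.07e-08). These *Hox*-class fits took all cells, and 29.9% of all genes at E14.5 and 66.6% at E18.5 were called. Dividing cells were 3.66 to 4.58% of *Hox*-positive and 9.54 to 23.1% of *Hox*-negative control cells at E14.5. At E18.5 they were 3.84 to 6.10% and 33.2 to 36.8%, and their part in the values of these other genes was not tested. Between the stages *Pknox1* rose (0.35 ± 0.09, edgeR adjusted p = 0.0127), *Crabp2*, another retinoic acid binding protein gene, fell by 5.39 on the log2 scale, and *Kmt2a*, an activating histone methyltransferase gene, rose by 0.71. All 12 *Hox* genes tested were called lower at E18.5 (median log2 change -3.03), beside 25.1% of all genes, while *Hox*-positive cells were 37.4 to 48.6% of cells in the E14.5 and 7.64 to 15.6% in the E18.5 control libraries. In the genotype comparisons *Hoxc4* in E18.5 migrating neurons-like cells was called, and none of the other TALE and PBX-binding genes was. The median over all genes tested, rounded to 2 decimals, was -0.01 to 0.01 in these comparisons.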

How the data were processed

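TdTom+ DAPI- cells were sorted and run on the 10x 3′ v3.1 chemistry. The authors deposited raw UMI counts per gene and barcode for each library, made with Cell Ranger 5.0.1 per the labels; per the file headers, E14.5 control libraries 1 and 2 came from version 3.1.0. Whether the deposited counts were corrected for free RNA is not given in the sources used here. Other genes of the families were not analysed here.

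The 6 genes and all lists were chosen with earlier results of these data known, and the PN state markers were found by the study on these libraries. Cells with at least 1000 genes and under 5% mitochondrial UMIs were kept (86757 of 150188), and the 7.5% of each library with the highest Scrublet scores were removed (6507). Cells were clustered per stage with Leiden (scanpy 1.11.5, 2000 variable genes without members and other TALE genes, 30 components, resolution 1), and clusters were named from marker lists; shares may therefore differ from those of the study. Cells with at least 3 UMIs of division genes counted as dividing and the others with at least 5 UMIs of neuronal genes as neurons, after thinning to 5000 UMIs.

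UMIs were summed per library over at least 10 cells and tested with edgeR 4.0.16 (R 4.3.3; quasi-likelihood F test, TMM), with DESeq2 1.42.0 as an alternative, leaving out genes detected in under 10% of the cells of every group compared, and p-values were adjusted by Benjamini-Hochberg over all genes of a fit. The genotype fits over all cells and the E14.5 *Hox*-class fit were also run on simulated counts. Of 100 genes changed 1.5-fold, the E14.5 genotype fit recovered 30%, the E18.5 genotype fit 63% and the *Hox*-class fit 96%. Of 100 genes changed 2-fold they recovered 81, 99 and 99%. Of the unchanged genes 9, 16 and 42 were called. The simulated counts held no effect of embryo or pair, and the changed genes were drawn at random. These rates therefore do not give the power for the members. *Hox*-class fits had the embryo as a block. Same-numbered control and *Atoh1S193A/-* embryos deviated together (r = 0.53, 0.82 and 0.74 at E14.5 and 0.78, 0.82 and 0.92 at E18.5), so the numbers were taken as pairs, and a fit with this block was made beside each genotype comparison. The genes named were the 6 members, the 3 genes most alike to each over E14.5 clusters, and, of the gene lists, the called genes that changed most. Counts over the list of retinoid genes and *Hox* regulators are not reported here. Each embryonic library was 1 embryo, so these fits measure the spread between embryos, and each P5 library was a pool of pups. Levels of classes with few cells carry counting error.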

Additional observations from a re-analysis of the deposited data

Results flagged for a closer look

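At E14.5 the difference between *Hox*-positive and *Hox*-negative control cells was not the same in dividing cells as in neurons for 4 of the 6 genes, by the interaction in edgeR. The difference in dividing cells minus that in neurons was 1.99 log2 units for *Meis2*, -1.26 for *Meis3*, 0.79 for *Pbx2* and -0.44 for *Pbx3*. Of all genes 12.8% passed the same test. Few UMIs stand behind the *Meis3* values of dividing *Hox*-positive cells.

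The *Hox*-class difference at E18.5 minus that at E14.5 was 2.39 log2 units for *Meis2*, -0.37 for *Meis3* and 0.35 for *Pbx4* over all control cells, against 51.2% of all genes past the test. Within neurons alone it was 1.99 for *Meis2*, -0.63 for *Meis3* and 0.28 for *Pbx4*, against 46.7% of all genes.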

How the results depend on the processing

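Each library was left out in turn of the genotype, *Hox*-class and stage comparisons. This was not done for the interactions, the fits over all PN-like cells, the stage fit in *Hox*-negative cells alone, or those in dividing cells or neurons alone. DESeq2 and no filter on low genes were tried for genotype over all cells and within states, between *Hox* classes and between stages. They were not tried in the genotype tests within *Hox* classes or in the interactions. Nor were they tried in the fits over PN-like cells, *Hox*-negative cells, dividing cells or neurons alone. The replicate block was tried in the genotype tests other than the interactions. Other size factors were tried over all cells (genotype and stage), a 10% mitochondrial limit and doublets kept for genotype over all cells, another resolution for the states, and other *Hox* limits, other thinning, and dividing cells or neurons alone between *Hox* classes (the limit also for genotype within them). The E14.5 genotype tests over all cells and within states were also run on the libraries of 1 Cell Ranger version. Of 1072 values so obtained, 1043 kept their direction and side of the threshold or were uncalled in both, 14 gained and 12 lost a call, and 3 reversed; 129 changed sign with neither value called. The interactions with division and stage and the fits over PN-like or *Hox*-negative cells alone were chosen after seeing the data. The reversals were in dividing cells at E14.5, with *Meis3* at -0.86, *Pbx2* at 0.32 and *Pbx3* at -0.39.

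With the replicate block the members called rose from 0 to 1 over all E14.5 cells, from 0 to 1 of the E14.5 states, from 0 to 2 in *Hox*-positive cells (and to 1 in *Hox*-negative cells), and from 0 to 3 and 0 to 1 over all PN-like cells at E14.5 and E18.5. The block changed no other member call. Without the filter on low genes 2 E18.5 state tests passed, the second being *Meis2* in ePN2-like cells (-1.30). With 1 library left out, the members called ran from 0 to 0 over all cells at E14.5 and at E18.5, in the E14.5 states and in *Hox*-positive cells, from 0 to 1 in the E18.5 states, from 1 to 4 and 2 to 4 between *Hox* classes at E14.5 and E18.5, and from 5 to 5 between stages. For these fits, and for those without the filter, the share of all genes called is not set beside the member counts. These counts show only how the member calls moved. In dividing cells at E18.5, 1 member was called. The cause of these moves was not tested. The E14.5 *Meis1* call between *Hox* classes was also lost with at least 4 *Hox* UMIs (0.34), thinning to 3000 UMIs (0.34) or in neurons alone (0.25).

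The number of genes called over all E14.5 cells was 2, against 250 with DESeq2, 1826 with the block, 1 with other size factors, 11 at the 10% limit and 0 with doublets kept. It was also 0 in edgeR (435 at an unadjusted p under 0.05) in the Cell Ranger 5.0.1 libraries, a fit with 1 control library, assumed to vary like the 3 mutants, that says nothing about the software version. At E18.5 it was 0, against 13 with DESeq2 and 37 with the block. Between *Hox* classes at E14.5, 2998 genes were called, against 5105 without the filter, 1378 in dividing cells, 1694 in neurons and as few as 1569 with 1 embryo left out. At E18.5, 7086 genes were called, against 1050 in dividing cells. States with few cells, such as the 16 to 28 dividing *Hox*-positive cells at E18.5, limit what could be detected.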
